A study of Rattus norvegicus with 6 samples.

Results

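The microRNAs (miRNAs) described here are 9 that mark epithelial cells, measured in exosomes of rat mesenchymal stem cells (MSCs). They are the miR-200 family (rno-miR-200a-3p, rno-miR-200b-3p, rno-miR-200c-3p, rno-miR-141-3p and rno-miR-429), rno-miR-205, and the miR-183 cluster (rno-miR-182, rno-miR-183-5p and rno-miR-96-5p), named from here on without the prefix for rat. They were picked by name as miRNAs that mesenchymal cells should hold little of, and all 9 had a line among the 749 miRNAs of the count table. The exosomes came from bone marrow MSCs of male Sprague-Dawley rats, identified in the study by their surface markers. The cells were grown in medium with fetal bovine serum, and with exosome-free serum for the collection of exosomes. MSCTXL-Exo came from MSCs pretreated with 400 μg/mL of Tongxinluo (TXL), a Chinese medicine compound, for 24 h, and MSC-Exo from MSCs without it, with 3 libraries per group. The libraries are named by the numbers 10, 12 and 13 that the columns of both groups carry, since neither the labels nor the methods say what these mark. No source states whether the libraries of a group stem from separate cultures. The p-values therefore cover only the spread among these samples, which may be technical.

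The miR-200 family keeps epithelial cells epithelial. Its members repress ZEB1 and ZEB2, transcription factors that shut off E-cadherin, and the ZEB proteins in turn repress the miR-200 genes, so that epithelial cells have the miRNAs and mesenchymal cells the ZEB proteins. miR-205, abundant in stratified epithelia such as skin, also targets ZEB1 and ZEB2. The miR-183 cluster is made as a single transcript in sensory organs and in many epithelia, and inherited changes in the seed of miR-96 cause hearing loss in mice and humans.

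A miRNA recognises its targets mainly by its seed, bases 2 to 8, and the mature sequences are shown because the seeds set which members could act alike. RefSeq (rat build GRCr8) held a mature sequence for 6 of the 9, printed 5′ to 3′ with the seed in capitals.
miR-200c-3p: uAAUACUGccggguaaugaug
miR-141-3p: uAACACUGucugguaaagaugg
miR-205: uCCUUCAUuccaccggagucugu
miR-182: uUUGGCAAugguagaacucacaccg
miR-183-5p: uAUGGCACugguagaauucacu
miR-96-5p: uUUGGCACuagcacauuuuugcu
These 6 had 6 different seeds, although some look alike. This holds for miR-200c-3p and miR-141-3p, for miR-182 and miR-96-5p, and for miR-183-5p and miR-96-5p. No other miRNA of the table had one of these seeds, among the 682 of 749 that matched a mature sequence by name. For miR-200b-3p, miR-429 and miR-200a-3p the RefSeq hairpins are shown, with capitals for the seed of miR-200c-3p in the hairpins Mir200b and Mir429 and for that of miR-141-3p in Mir200a, each found once.
Mir200b: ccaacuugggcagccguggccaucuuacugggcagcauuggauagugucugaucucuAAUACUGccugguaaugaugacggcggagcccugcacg
Mir429: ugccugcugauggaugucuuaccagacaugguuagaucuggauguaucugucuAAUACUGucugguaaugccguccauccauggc
Mir200a: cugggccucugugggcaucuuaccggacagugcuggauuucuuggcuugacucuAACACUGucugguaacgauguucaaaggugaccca
The copies within the family are close. miR-200c-3p differed at 1 of its 21 bases from the best stretch of the Mir200b hairpin, and miR-141-3p at 2 of its 22 from that of Mir200a. The number of mismatches allowed in alignment is not given in the sources used here, so the split of reads between miR-200c-3p and miR-200b-3p, and between miR-141-3p and miR-200a-3p, is uncertain. miR-96-5p has no such copy within its cluster, with at least 10 of 23 bases different.

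The 9 hairpins lie at 4 places of GRCr8, all on the reverse strand. Mir182, Mir96 and Mir183 lie within 3.91 kb of chromosome 4, at chr4:59752246-59752307, chr4:59755841-59755946 and chr4:59756044-59756153, between the coding genes Nrf1 and Ube2h. Mir141 (chr4:159209525-159209618) and Mir200c (chr4:159209965-159210033) lie within 0.51 kb, further along the same chromosome and between Phb2 and Ptpn6. Mir429 (chr5:171929682-171929766), Mir200a (chr5:171930717-171930805) and Mir200b (chr5:171931495-171931589) lie within 1.91 kb of chromosome 5, inside the span of Ttll10. Mir205 stands alone at chr13:107564535-107564642.

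The libraries held 382665, 794393 and 1792805 unique molecular identifiers (UMIs, each a tag of 1 RNA molecule) in MSCTXL-Exo libraries 10, 12 and 13, and 453812, 690263 and 1000585 in the MSC-Exo libraries. Levels are CPM, UMI counts relative to the library's total after scaling by edgeR's TMM factors (trimmed mean of M values), on a scale that sums to about 1e+06. Each molecule counts once whatever its length, so levels can be set side by side between miRNAs, apart from differences in how well the kit captures each. Where a miRNA was not counted, its level could still be as high as 1.94 to 7.48 CPM, the worth of 3 UMIs in the deepest and the shallowest library (counting error only). By edgeR's quasi-likelihood test, 14 of the 392 miRNAs that passed its filter on low counts differed over 2-fold with an unadjusted p under 0.05, or 3.57%, with 7 of them (1.79%) higher in MSCTXL-Exo. None had a Benjamini-Hochberg adjusted p under 0.05 by edgeR, DESeq2 or limma-voom without a replicate block. MSCTXL-Exo library 12 and MSC-Exo library 10 stood apart, each with 39 miRNAs over 2-fold above every other library, against 0 to 2 in the other 4.

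Together the 9 epithelial miRNAs made up a very small part of the exosomal miRNA. They summed to 194, 297 and 135 CPM in MSCTXL-Exo libraries 10, 12 and 13, against 139, 131 and 111 CPM in the MSC-Exo libraries. The log2 ratio of the mean sums was 0.72, and 0.28 without miR-96-5p (146 CPM in MSCTXL-Exo and 120.5 CPM in MSC-Exo). The largest share of a library was 0.0302% in MSCTXL-Exo library 12 (95% Clopper-Pearson interval 0.0265% to 0.0343%) and the smallest 0.0103% in MSC-Exo library 13 (0.0084% to 0.0125%). The 10 mesenchymal miRNAs listed for comparison, led by miR-125b-5p, miR-199a-3p and miR-143-3p, summed to 351962 to 406288 CPM in MSCTXL-Exo and 316809 to 406765 CPM in MSC-Exo. They exceeded the epithelial sum 1217-fold to 3003-fold in the MSCTXL-Exo libraries and 2281-fold to 3656-fold in the MSC-Exo libraries. The exosomes therefore carried the 10 listed mesenchymal miRNAs in great excess over these 9, which were at a trace level in every library. This does not extend to every epithelium-associated miRNA. A list of 10 others, led by miR-31a-5p, summed to 6156 to 7565 CPM in MSCTXL-Exo and 4657 to 6390 CPM in MSC-Exo.

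**Figure D1:**
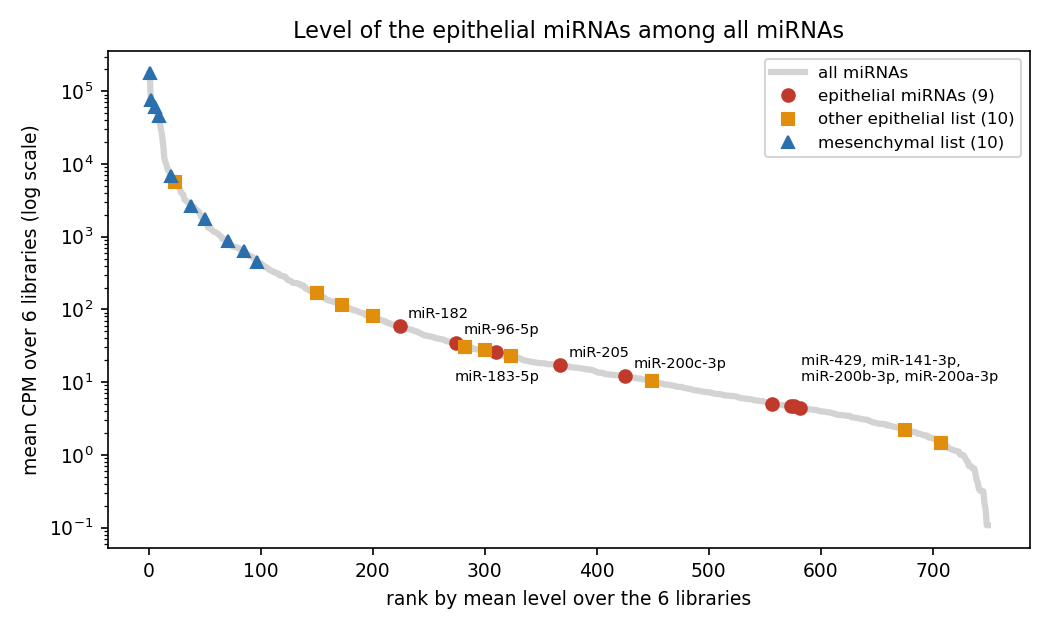
Mean CPM over the 6 libraries (log scale) of all 749 miRNAs against their rank, with the 9 epithelial miRNAs as red circles, 10 other epithelium-associated miRNAs as orange squares and 10 mesenchymal miRNAs as blue triangles. The epithelial miRNAs rank 224 to 581, all below the 10 mesenchymal miRNAs.

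Of the 9, miR-182 was the highest, with a mean of 58.9 CPM over the 6 libraries (rank 224 of 749). It was followed by miR-96-5p (34.8 CPM), miR-183-5p (26.1 CPM), miR-205 (17.2 CPM) and miR-200c-3p (12.1 CPM). The other members of the miR-200 family, miR-429, miR-141-3p, miR-200b-3p and miR-200a-3p, averaged 5.05, 4.72, 4.64 and 4.41 CPM (ranks 556 to 581). Not every step of this order held across libraries. miR-182 lay above miR-96-5p in 5 of 6 libraries and miR-200c-3p above miR-429 in 5 of 6, whereas miR-96-5p lay above miR-183-5p in only 2 of 6. miR-183-5p was above miR-205, and miR-205 above miR-200c-3p, in 4 of 6 each. The 4 lowest cannot be ordered, with at most 13 UMIs in any library.

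**Figure D2:**
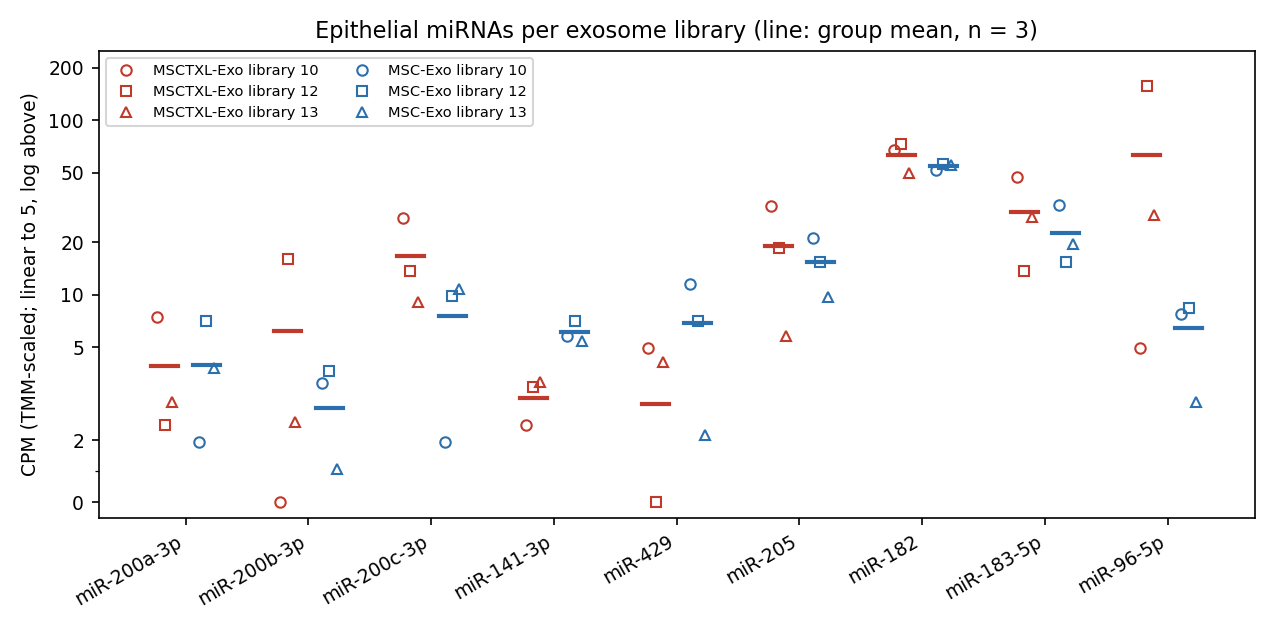
CPM of each of the 9 epithelial miRNAs (axis linear to 5 CPM, log above) in the 3 MSCTXL-Exo libraries (red, left) and the 3 MSC-Exo libraries (blue, right), with the library number as the symbol and a line at each group mean. miR-96-5p in MSCTXL-Exo libraries 12 and 13, at 156 and 28.5 CPM, stands above its other 4 values, while the groups of most other miRNAs overlap.

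TXL pretreatment was compared first for the miR-183 cluster, which held most of the epithelial UMIs. miR-96-5p was far higher in MSCTXL-Exo libraries 12 and 13 than in any other library, whereas its neighbours miR-182 and miR-183-5p overlapped between the groups. It was counted 2, 126 and 44 times in MSCTXL-Exo libraries 10, 12 and 13, or 4.99, 156 and 28.5 CPM, and 4, 6 and 3 times in the MSC-Exo libraries, or 7.72, 8.43 and 3.24 CPM. MSCTXL-Exo library 10 was thus within the range of the MSC-Exo libraries, and the groups overlapped. The mean was 63.2 ± 81.3 CPM in MSCTXL-Exo and 6.46 ± 2.81 CPM in MSC-Exo (SD, n = 3 each), a 9.77-fold difference that was within the spread of the libraries (exact two-sided permutation test, p = 0.3, where 3 against 3 cannot go under 0.1). Against the MSC-Exo library of the same number it had 0.646 times the level in library 10, 18.5 times in library 12 and 8.79 times in library 13.

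As miR-96-5p was high in 2 libraries, it did not pass the filter on low counts, which asks for 3. The plan gave miRNAs that fail the filter only their counts and the permutation test. The fold changes of miR-96-5p that follow, from fits without the filter, were added after the data were seen. In the comparison of all 749 miRNAs without that filter, the log2 fold change of miR-96-5p was 3.28, with a standard error of 0.96. Its unadjusted p was 0.00489 and its adjusted p, by the method of Benjamini and Hochberg in edgeR, 0.772. It was the only 1 of the 9 past both thresholds, where 34 of the 749 (4.54%) were, 15 of them (2%) higher in MSCTXL-Exo. Only 3 miRNAs had a smaller p and only 3 a larger positive fold change there. DESeq2 gave 3.32 (adjusted p = 0.0693), and limma-voom 2.33 with an unadjusted p = 0.0538, no longer past the threshold. When library number, which pairs the libraries only in part (MSCTXL-Exo library 12 went more with MSC-Exo library 10 than with 12), entered the model as a replicate block, the log2 fold change was 2.83 (standard error 0.62), with an adjusted p = 0.00372 from edgeR. Blocked DESeq2 gave an adjusted p = 0.0413 and blocked limma-voom an adjusted p = 0.108. With this block and no filter, the miRNAs with an adjusted p under 0.05 were 1.6% of those tested by edgeR (12 of 749), 1.47% by DESeq2 and 0.267% by limma-voom. Without both libraries numbered 12, the blocked adjusted p of miR-96-5p was 0.211, and without both numbered 13 it was 0.521, by edgeR. It was 1.01e-05 without both numbered 10, which leaves out the MSCTXL-Exo library where miR-96-5p was low.

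The value of miR-96-5p rests on few libraries. Without MSCTXL-Exo library 12 its log2 fold change was 1.71 (unadjusted p = 0.0270 from edgeR with no filter, adjusted p = 0.959), and without the other libraries in turn 2.93 to 3.85. That library is 1 of the 2 that stood apart, and miR-96-5p is among its 39 miRNAs over 2-fold above every other library. Its part in the result is given by the value without it, while the part of MSCTXL-Exo library 13, the deepest, is given by 3.63 without that library. Among 404 miRNAs with at least 10 UMIs in both MSCTXL-Exo libraries 12 and 13, miR-96-5p and miR-759 alone were over 2-fold above the other 4 libraries in both, a count made after the values of miR-96-5p were seen.

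**Figure D3:**
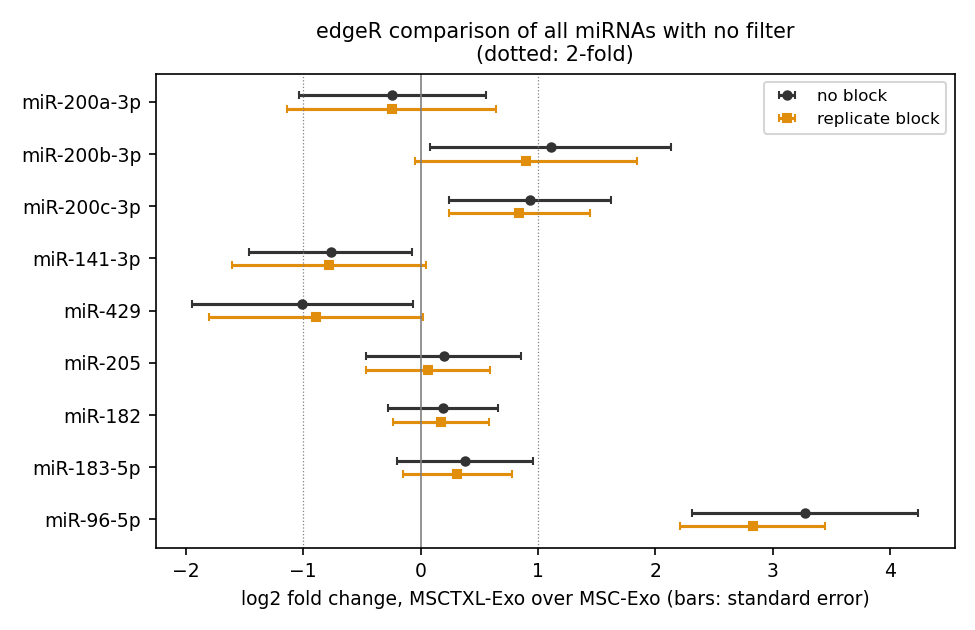
Log2 fold change of MSCTXL-Exo over MSC-Exo with its standard error for the 9 epithelial miRNAs, from the edgeR comparison of all 749 miRNAs with no filter on low counts, unblocked (black circles) and blocked by library number (orange squares). miR-96-5p, at 3.28 and 2.83, lies beyond the dotted 2-fold line by more than its standard error, and the other 8 lie between -1.01 and 1.11.

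miR-182, which targets FOXO transcription factors in human cells, was steady. It had 67.3, 73.1 and 49.8 CPM in MSCTXL-Exo libraries 10, 12 and 13, against 52.1, 56.2 and 55.1 CPM in the MSC-Exo libraries. The MSC-Exo libraries were closer to each other than counting error usually leaves them (chi-square 0.0979 on 2 degrees of freedom), and the MSCTXL-Exo libraries lay on both sides of them. Its log2 fold change was 0.21 (standard error 0.37), with an adjusted p = 0.992 from edgeR. miR-183-5p, the first miRNA of the cluster's transcript, had 47.4, 13.6 and 27.8 CPM in MSCTXL-Exo, against 32.8, 15.5 and 19.4 CPM in MSC-Exo. Both groups were highest in library 10 and lowest in library 12, and they overlapped, with a log2 fold change of 0.37 (standard error 0.56, adjusted p = 0.992 from edgeR).

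Within the cluster, the share of miR-96-5p can be read inside each library, free of scaling. Of the UMIs of the 3 miRNAs, miR-96-5p held 4.17% (2 of 48), 64.3% (126 of 196) and 26.8% (44 of 164) in MSCTXL-Exo libraries 10, 12 and 13. In the MSC-Exo libraries it held 8.33% (4 of 48), 10.5% (6 of 57) and 4.17% (3 of 72). The 95% Clopper-Pearson intervals of MSCTXL-Exo libraries 12 and 13, 57.1% to 71% and 20.2% to 34.3%, cover counting error only. The interval of library 12 lay above those of all the other libraries, and that of library 13 above the values of the remaining 4. miR-96-5p was thus 2.14 times as frequent as miR-182 in MSCTXL-Exo library 12 and 0.571 times in library 13, against 0.0588 to 0.15 times in the MSC-Exo libraries and 0.0741 times in MSCTXL-Exo library 10.

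**Figure D4:**
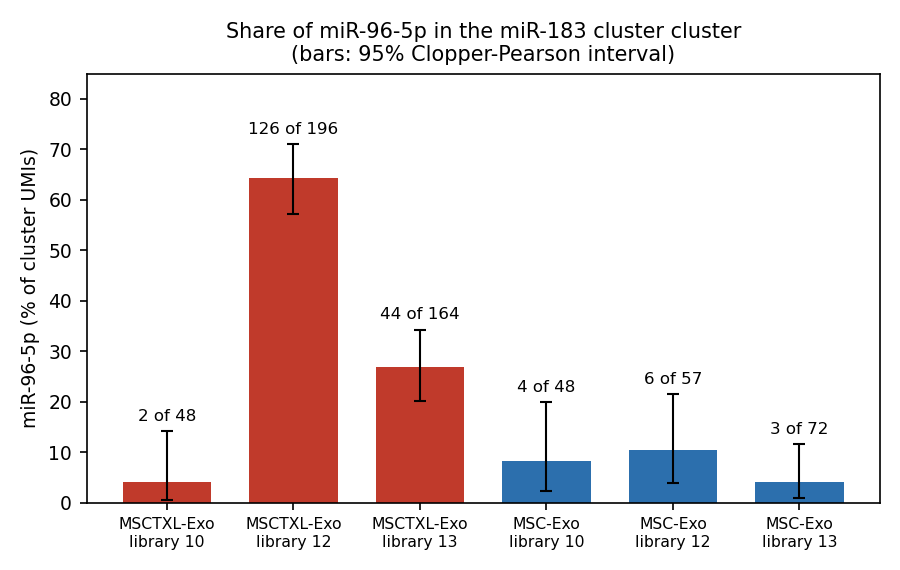
Share of miR-96-5p among the UMIs of miR-182, miR-183-5p and miR-96-5p in each library, in percent, with the 95% Clopper-Pearson interval as the error bar and the UMI counts above. The share is 64.3% and 26.8% in MSCTXL-Exo libraries 12 and 13 and 4.17% to 10.5% in the other 4 libraries.

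The other arm of the same hairpin showed no such rise in MSCTXL-Exo libraries 12 and 13, at counts of at most 3 UMIs per library. The Mir96 hairpin is shown with both mature arms in capitals, miR-96-5p first and miR-96-3p second.
Mir96: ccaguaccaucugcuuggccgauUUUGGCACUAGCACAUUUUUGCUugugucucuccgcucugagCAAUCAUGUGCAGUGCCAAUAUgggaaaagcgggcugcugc
miR-96-3p was counted 3 times in each MSCTXL-Exo library and 1, 3 and 0 times in MSC-Exo libraries 10, 12 and 13. Without the filter its log2 fold change was 0.88 (standard error 1.07, unadjusted p = 0.428 from edgeR). In MSCTXL-Exo library 12 the arms were thus counted 126 and 3 times, against 6 and 3 times in MSC-Exo library 12. The other arm of miR-183, miR-183-3p, had 1 UMI over all 6 libraries.

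The Mir183 hairpin is overlapped on the forward strand by Mir3553, whose mature miRNA miR-3553 (chr4:59756105-59756127) is complementary to all 22 bases of miR-183-5p, in capitals.
miR-3553: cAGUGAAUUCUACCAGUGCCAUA
It is no member of the cluster and was looked up for its place. It was counted 5515 times over the 6 libraries, against 119 times for miR-183-5p, or 46.3 times as often. The levels were 429, 3702 and 550 CPM in MSCTXL-Exo libraries 10, 12 and 13, against 1159, 654 and 472 CPM in the MSC-Exo libraries. Like miR-96-5p it was highest in MSCTXL-Exo library 12, and it was not otherwise higher in MSCTXL-Exo. Its log2 fold change was 1.04 (standard error 0.82, adjusted p = 0.992 from edgeR) and -0.65 without that library. Its ratio to miR-183-5p was 9.05, 272 and 19.8 in MSCTXL-Exo and 35.4, 42.3 and 24.3 in MSC-Exo. The sources used here do not state whether counting used the strand, so reads of miR-183-5p and of its antisense partner cannot be told apart with certainty, although the table lists them apart.

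The miR-200 family was near the limit of detection. None of the 5 passed the filter on low counts, and without the filter 0 of 5 were called by edgeR, where 4.54% of all 749 were, so that the count is no result about the family. Summed over the family, MSCTXL-Exo libraries 10, 12 and 13 had 42.4, 35.9 and 23.3 CPM, against 25.1, 35.1 and 23.8 CPM in the MSC-Exo libraries, so that the groups overlapped. miR-200c-3p, its most abundant member, was counted 11, 11 and 14 times in MSCTXL-Exo and 1, 7 and 10 times in MSC-Exo. These are levels of 27.4, 13.6 and 9.06 CPM in MSCTXL-Exo and 1.93, 9.84 and 10.8 CPM in MSC-Exo. MSCTXL-Exo library 10 was the highest and MSC-Exo library 10 the lowest, while the libraries numbered 13 hardly differed (0.839-fold). Without the filter its log2 fold change was 0.93 (standard error 0.69, unadjusted p = 0.199 from edgeR).

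miR-141-3p, whose hairpin lies beside that of miR-200c-3p, was counted 1, 3 and 6 times in MSCTXL-Exo and 3, 5 and 5 times in MSC-Exo, or 2.49, 3.71 and 3.88 CPM against 5.79, 7.03 and 5.40 CPM. All MSC-Exo libraries lay above all MSCTXL-Exo libraries, as was so in either direction for 53 of the 749 miRNAs (7.08%). With 10 UMIs in MSCTXL-Exo and 13 in MSC-Exo, the log2 fold change of -0.76 without the filter had a standard error of 0.69 (unadjusted p = 0.291 from edgeR). Its exact permutation test gave p = 0.1, the smallest that 3 against 3 allows. The other arm of its hairpin, miR-141-5p, was counted more often than miR-141-3p in 5 of 6 libraries, with 3, 13 and 11 UMIs in MSCTXL-Exo and 5, 3 and 8 in MSC-Exo.

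The chromosome 5 members were counted 0 to 13 times per library. miR-200b-3p had 0, 13 and 4 UMIs in MSCTXL-Exo and 2, 3 and 1 in MSC-Exo, and its 13 in MSCTXL-Exo library 12 stood out. Without that library the log2 ratio of its mean levels was -1.26, against 1.03 with it. miR-429 had 2, 0 and 7 UMIs in MSCTXL-Exo and 6, 5 and 2 in MSC-Exo, and miR-200a-3p had 3, 2 and 5 against 1, 5 and 4. The highest level was in MSCTXL-Exo library 12 for miR-200b-3p, in MSC-Exo library 10 for miR-429 and in MSCTXL-Exo library 10 for miR-200a-3p, at counts too low to compare these patterns. Their other arms and that of miR-200c had at most 5 UMIs in any library. Without the filter, the log2 fold change of miR-200b-3p was 1.11 with a standard error of 1.03 (unadjusted p = 0.301 from edgeR). With such counts, the lack of a call does not show the lack of a 2-fold difference. The smallest detectable difference was not tested.

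miR-205 had 13, 15 and 9 UMIs in MSCTXL-Exo and 11, 11 and 9 in MSC-Exo. As the libraries differ in depth, these nearly equal counts are levels of 32.4, 18.6 and 5.83 CPM in MSCTXL-Exo libraries 10, 12 and 13, against 21.2, 15.5 and 9.72 CPM in the MSC-Exo libraries. In both groups library 10, the shallowest, was highest and library 13, the deepest, lowest. The log2 fold change was 0.20 (standard error 0.67, adjusted p = 0.992 from edgeR), so no difference between the groups was seen beyond the spread of the libraries.

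Of the 9 miRNAs, 3 passed the filter on low counts and 0 of these were called, where 3.57% of all tested miRNAs were. A count of 0 among so few says nothing particular to them, and the same holds for the lists that follow. Without the filter, 6 of 9 had a positive log2 fold change, with a median of 0.20, against 359 of 749 (47.9%) and a median of -0.03 over all miRNAs. Of a list of 11 other epithelium-associated miRNAs, 10 had a line and 7 were tested, of which 3 were positive, 4 negative and 0 called (median log2 fold change -0.01). The most abundant of these was miR-31a-5p, with means of 6217 CPM in MSCTXL-Exo and 5200 CPM in MSC-Exo, followed by miR-192-5p (165 and 166 CPM) and miR-34c-5p (121 and 107 CPM). Of the 10, 4 had a higher mean level than miR-182 and 6 a lower one. Of 10 mesenchymal miRNAs, 10 were tested and 0 called, among them miR-125b-5p (log2 fold change 0.16), miR-199a-3p (-0.01) and miR-143-3p (-0.19).

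Markers of other cells were also present. The highest, miR-126a-3p and miR-7a-5p, averaged 925 and 860 CPM over the 6 libraries. The 10 mesenchymal miRNAs averaged from 445 CPM (miR-10b-5p) to 176154 CPM (miR-125b-5p). Of the 13 markers of other cells that were tested, 0 were called, where 3.57% of all tested miRNAs were. Without the filter miR-206-3p of the muscle list was called lower in MSCTXL-Exo (log2 fold change -1.27, unadjusted p = 0.0363 from edgeR), where 4.54% of all were called. The blood and immune list (6 of 7 with a line, led by miR-142-3p, miR-223-3p and miR-150-5p) summed to 214 to 332 CPM in MSCTXL-Exo and 335 to 450 CPM in MSC-Exo. The sensory and neural list (8 of 8, led by miR-7a-5p, miR-211-5p and miR-129-5p), of interest because sensory cells make the miR-183 cluster, summed to 887 to 1286 CPM in MSCTXL-Exo and 1271 to 1572 CPM in MSC-Exo. The liver marker miR-122-5p had 106 to 251 CPM in MSCTXL-Exo and 149 to 177 CPM in MSC-Exo. The muscle list (4 of 4, led by miR-206-3p, miR-133a-3p and miR-1-3p) summed to 127 to 509 CPM in MSCTXL-Exo and 403 to 830 CPM in MSC-Exo. The endothelial list (miR-126a-3p and miR-126a-5p) summed to 807 to 1340 CPM in MSCTXL-Exo and 1018 to 1403 CPM in MSC-Exo. In no list did all MSCTXL-Exo libraries lie above all MSC-Exo libraries. In the blood and immune list all lay below, by a narrow margin (332 against 335 CPM). Among single miRNAs, 53 of 749 (7.08%) were so separated in either direction, so this is no result about the list. No listed marker with a line was at 0 in all libraries. The part of these lists in the miR-96-5p result was not tested.

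The miRNAs whose pattern was most like the epithelial sum over the 6 libraries were miR-3558-5p, miR-671, miR-125a-3p, miR-23b-5p and miR-3084b-3p. Their Pearson r was 0.91 to 0.94 on log2(CPM + 5), the highest among 389 candidates. All 5 were highest in MSCTXL-Exo library 12. Without the libraries farthest from the median sum, MSCTXL-Exo libraries 12 and 10, their r was -0.54 to 0.68 over 4 libraries, so that the likeness rests on those libraries. Of the 9 themselves, miR-182 (0.88) and miR-96-5p (0.77) had the highest r with the sum, of which they are the largest parts.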

How the data were processed

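Small RNA libraries of exosomal RNA were made by the authors with the QIAseq miRNA Library Kit. Per the labels, reads were trimmed with cutadapt 2.7 and aligned with Bowtie 1.2.2. The build and mismatches allowed are not given in the sources used here. The authors deposited UMI counts per miRNA and library, in 833 lines for 749 miRNAs. Each of 69 miRNAs with several lines, identical in counts, was used once. The table's 6 columns of CPM, a value for each sample, were left aside. Column letters M and T were read as MSC-Exo and MSCTXL-Exo.

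For the comparison of MSCTXL-Exo with MSC-Exo, edgeR 4.0.16 (R 4.3.3) was run with TMM factors (filterByExpr with minimum count 10 and total 15, quasi-likelihood test), at the study's thresholds of 2-fold and an unadjusted p under 0.05. Standard errors given for edgeR are the absolute log2 fold change divided by the square root of the test's F statistic. Alternatives used DESeq2 1.42.0, limma-voom (limma 3.58.1), other scalings and filters, a replicate block and left-out libraries. The code was tested on simulated data. Libraries of the same number deviated together (r = 0.43 for 10, 0.18 for 12 and 0.70 for 13 over 392 miRNAs). MSCTXL-Exo library 12 correlated more with MSC-Exo library 10 (r = 0.35) than with MSC-Exo library 12. The number comes from the column names and was also used as a block. The epithelial miRNAs, the marker lists and the tests were chosen with earlier results of these data known. All 9 were named, with their other arms, the 3 most abundant of each list and the 5 miRNAs most like their sum. miR-3553 and miR-759 were named after their values were seen. Permutation tests were exact and two-sided. Sequences are from RefSeq GRCr8.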

Additional observations from a re-analysis of the deposited data

How the results depend on the processing

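The count of 14 miRNAs past both thresholds became 34 with no filter, 6 with at least 10 counts in every library, 24 with DESeq2, 9 with limma-voom, 29 with the replicate block, and 6 to 38 with 1 library left out. In these settings, each changed alone, the count with an adjusted p under 0.05 was 0, and 1 with the replicate block. The count of epithelial miRNAs past the thresholds was 0, but 1, miR-96-5p, with no filter, and 0 to 1 with 1 library left out, as the filter then admits it in groups of 2 libraries. miR-182, miR-183-5p and miR-205 were called in 0 of 41 alternatives. Their log2 fold changes were positive in 37, miR-205 having -0.0080 with limma-voom and -0.35 to 0.67 with 1 library left out, and miR-183-5p -0.073 to 0.70. Without a filter, in alternatives added after the data were seen, miR-96-5p had a log2 fold change of 2.33 with limma-voom, no longer past the thresholds, and 1.71 to 3.85 with 1 library left out. It passed them with 3.30, 3.25 and 3.18 under RLE, library totals and upper quartile scaling, and with both libraries of a number left out of the blocked comparison (1.84 to 3.75). Its adjusted p ran from 1.01e-05 to 0.998 over these. Without the block, it was 0.00818 with upper quartile scaling and 0.0452 without MSCTXL-Exo library 10, both by edgeR. In every other setting without the block it was over 0.05. The cause of these differences was not tested. The log2 ratio of the epithelial sum was 0.72, 0.36 to 0.89 with 1 library left out, and 0.28 without miR-96-5p. The offset of 1 CPM gave the same 5 miRNAs as most like the sum. The replicate block changed no other epithelial call. Depth limits the miR-200 family, at 6 to 36 UMIs per member and group.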
